A study of Mus musculus with 54 samples.

Results

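This is a comparison of RNA from mouse embryonic stem cells at day 10 of differentiation in retinoic acid with RNA from the same line at day 0. Its members were chosen by the day in each library's label and are the 5 day-10 and 7 day-0 libraries, 12 of the 22 RNA libraries in a time course of days 0, 2, 4, 10 and 20, which with 32 ATAC libraries made 54 in all. All cells were of R1, an established embryonic stem cell line, with no allele or transgene named. Per the labels' protocols the stem cells were kept in medium with 15% knockout serum replacement and LIF, a cytokine that holds them in the stem cell state. They were aggregated in hanging drops for 48 h, and the aggregates, called embryoid bodies, were then held in suspension with 0.5 mM retinoic acid, renewed daily for up to 20 days. Whether day 0 precedes or follows aggregation is not in the labels. Nor do they tie the libraries of a day to separate cultures, and the p-values therefore describe spread between libraries that could be technical. The comparison asks which genes distinguish embryoid bodies at day 10 from the starting cells. Levels are the deposited FPKM (fragments counted relative to transcript length and library total), given as mean ± SD over the 7 or 5 libraries. Changes are day 10 minus day 0 in log2(FPKM + 1) ± SE from limma, a scale that understates the change of low genes.

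Retinoic acid is made from vitamin A and binds nuclear receptors that sit on DNA. In the embryo it gives posterior identity to the neural tube and opens the Hox clusters from their 3′ end, and its own breakdown enzymes are among its targets. Stem cells treated with it as embryoid bodies leave pluripotency, pass through a neural progenitor stage, and form neurons of hindbrain and spinal cord character, with glia following later.

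The day-10 libraries lay close to each other and far from the day-0 libraries. Across genes, which are not independent replicates, Pearson correlations were 0.9962 to 0.9982 within day 10, 0.9896 to 0.9972 within day 0 and 0.7044 to 0.7182 between the days. Summed FPKM ran from 648331 to 672350 at day 0 and from 472122 to 494725 at day 10, and genes above 0 from 16131 to 16715 and from 17801 to 17948. Read totals are not used here, so depth is unknown. The day-0 libraries formed a pair of sets, replicates 1 to 3 and 4 to 7, that no label explains. Of 14982 genes tested 4615 were called between these sets, 91 of them at 2-fold or more. Between day 10 and day 0 the same counts were 13560 and 7063. A gene at 10 FPKM or more at day 10 had a median coefficient of variation of 0.0488 across the 5 libraries over 8223 such genes. The widest spreads were those of Lars2, a mitochondrial enzyme (23.9, 44.7, 50.5, 129 and 21.4 FPKM), and the keratin gene Krt15 (5.2, 5.39, 11.6, 17.4 and 17.3 FPKM).

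Marker sums described the cells present. The summed level of 4 stem cell markers (Pou5f1, Nanog, Zfp42 and Esrrb) was 1539 to 1742 FPKM in the day-0 libraries and 12.5 to 14.2 in the day-10 libraries. Over the same libraries 5 markers of neural progenitors and radial glia went from 30.3–40.6 to 1447–1626, 5 neuronal markers from 32.3–36.3 to 491–524, 4 astrocyte markers from 1.99–4.23 to 277–311 and 5 of the oligodendrocyte lineage from 7.29–15.6 to 294–336 FPKM. Most of the progenitor sum at day 10 was Fabp7, which rose from 0.29 to 1332 FPKM, while Nes fell from 18.3 to 10.2 FPKM. Markers of other cells were present as well. The sum of 5 endoderm markers went from 5.99–26.4 to 102–129, of 4 epithelial markers from 144–158 to 195–213, of 5 mesenchyme and muscle markers from 107–123 to 63.2–73.0 and of 4 endothelial markers from 28.7–33.4 to 12.2–13.1 FPKM. Members of these lists went apart. The lower sums of mesenchyme and endothelium came mainly from Tagln, which fell from 97.7 to 11.3 FPKM, and Pecam1, which fell from 29.3 to 0.344 FPKM, whereas Col1a1 rose from 2.31 to 13.8 FPKM, and Col3a1, Dcn, Cdh5 and Kdr rose too. Of the epithelial markers Krt8 and Krt18 rose, and Cdh1 and Epcam fell. The 4 microglia markers stayed near 0, summing to at most 1.02 FPKM at day 10. At a mean of 1 FPKM or more at day 10 were 4 of 5 endoderm markers (not Alb), 4 of 4 epithelial, 5 of 5 mesenchyme and muscle, 2 of 4 endothelial, 2 of 4 neural crest and 0 of 4 microglia markers. What part these other cells have in the changes that follow was not tested. In bulk RNA a smaller share of cells of a type and less RNA per cell cannot be told apart, and this holds for each level below.

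The test covered 14982 of 21960 genes, those at 1 FPKM or more in 3 or more libraries, and 13560 (90.5%) differed between the days (limma, Benjamini-Hochberg adjusted p under 0.05). Of all genes tested 54.1% rose and 36.4% fell. A change of 2-fold or more was called for 4575 genes that rose (30.5%) and 2488 that fell (16.6%), and 8-fold changes numbered 930 and 292. All 5 day-10 libraries lay above all 7 day-0 libraries for 49.5% of genes and below them for 32.7%, so the days did not overlap for 82.2%. The median change of all genes was 0.28. It was -0.02 after quantile normalization and 0.62 with every library rescaled to the same sum, so the percentage of calls in the upward direction was 59.8 as deposited and 48.8 and 70.7 under these scalings, and among 2-fold calls 64.8, 49.9 and 77.8. With so wide a difference a single called gene says little, and lists are therefore read against these shares. The filter of 1 FPKM took in the libraries of all days. A member near 0 at day 0 was thus tested only if it was higher on a later day. List counts and medians leave out members that stayed near 0, which favours rises, and the shares of all genes do so too. Every gene said below to have risen or fallen passed the test, with a limma adjusted p of at most 0.043.

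**Figure D1:**
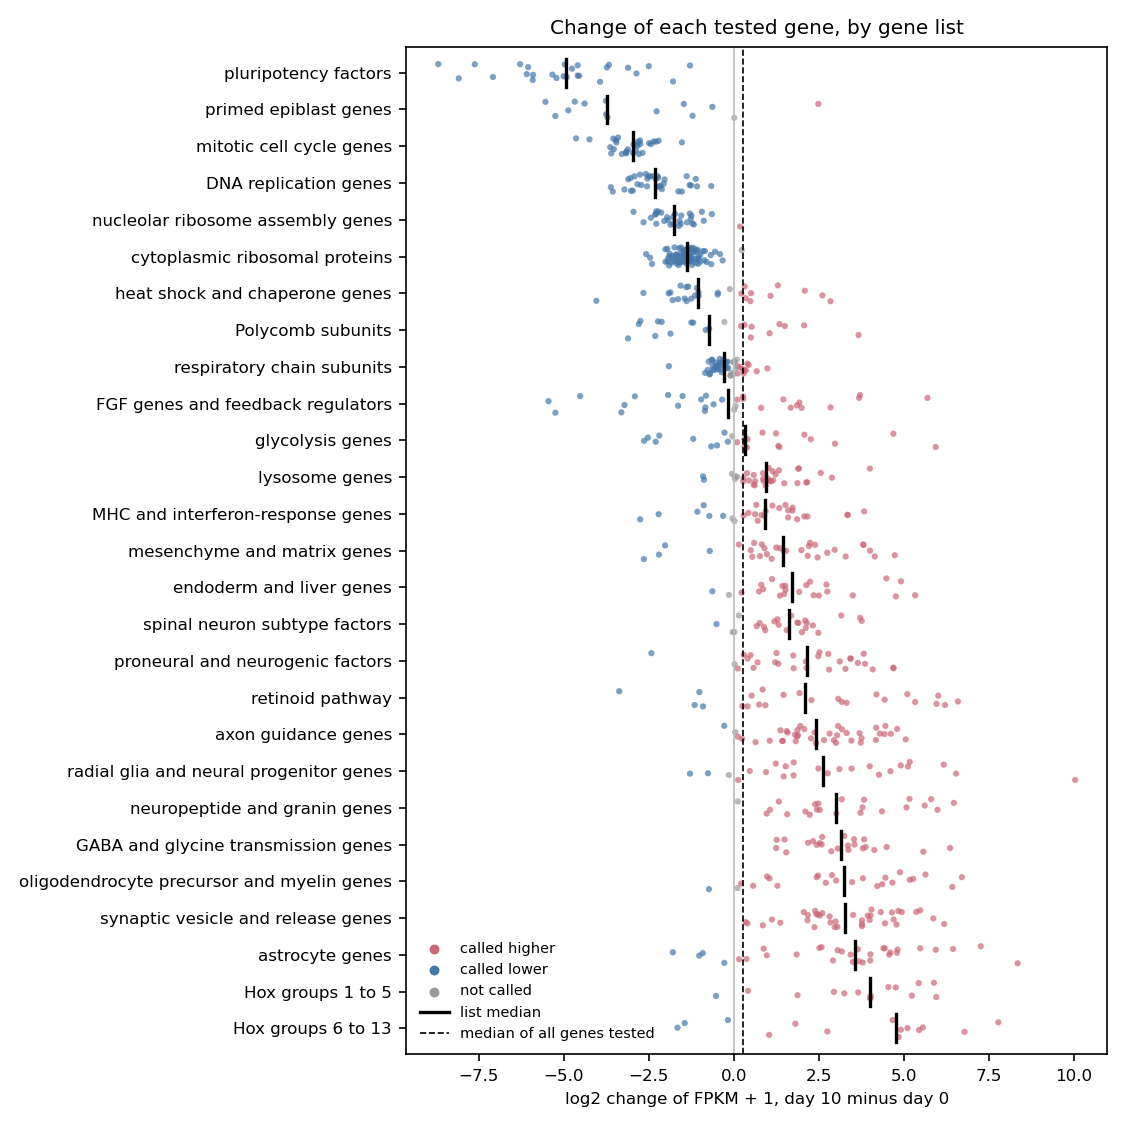
Log2 change of each tested gene from day 0 to day 10 (x axis, log2 of FPKM + 1), grouped by gene list (y axis). Each point is 1 gene, coloured by its limma call, black bars are list medians and the dashed line is the median of all genes tested, 0.28. The pluripotency, mitotic and replication lists lie wholly to the left and the neuronal, glial and Hox lists mostly to the right.

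Among the genes that rose, 548 went from a mean under 1 FPKM to 10 or more. The 15 largest rises on the log2 scale included Fabp7, Sparcl1, Gfap, Hoxb8 and Hoxb6, the neuronal vesicle proteins Nsg1 from 0.691 ± 0.373 to 249 ± 7.47 FPKM (log2 change 7.23 ± 0.10) and Nsg2 from 0.843 to 245 FPKM, and the membrane glycoproteins Gpm6a from 0.153 to 156 FPKM and Gpm6b from 0.419 to 147 FPKM. Ptn, a secreted growth factor that binds heparin, rose from 0.459 ± 0.183 to 176 ± 5.81 FPKM (log2 change 6.93 ± 0.09), and Igfbp5, which binds insulin-like growth factors, from 0.26 to 158 FPKM. The membrane proteins Tmem176b and Tmem176a rose from 0.571 to 235 FPKM and from 0.424 to 157 FPKM. Gkn2 and Gkn1, gastrokines known as products of the stomach lining, rose from 0.314 ± 0.247 to 424 ± 23.3 FPKM (log2 change 8.36 ± 0.11) and from 0.191 ± 0.159 to 178 ± 13.4 FPKM (log2 change 7.24 ± 0.09). Their day-10 libraries read 444, 453, 413, 402 and 406 FPKM for Gkn2 and 185, 197, 174, 163 and 171 FPKM for Gkn1, so no single library carried the rise, and at day 20 the means were 1514 and 905 FPKM. The most abundant of the genes that rose at least 2-fold was Tuba1a, the alpha tubulin of young neurons, from 339 to 2027 FPKM. It was followed by the matrix protein Sparc, Fabp7, the actin-binding thymosin Tmsb4x from 476 to 1102 FPKM, the brain creatine kinase Ckb from 155 to 916 FPKM and cystatin C, Cst3 from 92.9 to 818 FPKM.

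Genes of the stem cell state fell without exception among the factors listed. Of 26 pluripotency factors, all tested, 26 fell and all 26 had no overlap between days, with a median of -4.94 against 0.28 for all genes. Of all genes 36.4% fell, and 32.7% lay below day 0 without overlap. Pou5f1, which encodes OCT4, stood at 747, 812 and 999 FPKM in the lowest, median and highest day-0 library and at 1.23, 1.37, 1, 0.9 and 0.97 FPKM in the 5 day-10 libraries, so the days lie far apart (log2 change -8.69 ± 0.08). Its day-0 values were higher in replicates 1 to 3 than in 4 to 7, as the plot of levels by day shows. Utf1, a chromatin factor of stem cells, fell from 303 ± 47.9 to 0.108 ± 0.0476 FPKM (log2 change -8.08 ± 0.09), and Tdgf1, a co-receptor for Nodal, from 398 to 1.03 FPKM. Dppa5a, an RNA-binding protein and the most abundant of the list, fell from 2464 ± 81.8 to 30.8 ± 2.31 FPKM (log2 change -6.28 ± 0.05). Sox2, which neural progenitors use too, had the smallest fall on the log2 scale, from 245 ± 18.6 to 100.1 ± 5.63 FPKM (log2 change -1.28 ± 0.05). L1td1, an RNA-binding protein derived from a transposon, fell from 448 to 5.57 FPKM, and Dppa2, which marks genes of the earliest embryo, from 115 to 0.746 FPKM.

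Other genes of the early embryo and the germ line followed, read against 54.1% risen and 36.4% fallen among all genes. Of genes of the primed epiblast, the tissue that pluripotent cells become at implantation, 1 of 14 tested members rose and 12 fell. The growth factor gene Fgf4 fell from 37.7 ± 3.53 to 0.018 ± 0.0192 FPKM (log2 change -5.24 ± 0.05), Nodal from 32.7 to 0.16 FPKM and its inhibitor Lefty1 from 60.7 to 1.39 FPKM, and the homeobox gene Otx2 from 20.9 to 0.036 FPKM. Pou3f1, an epiblast factor that neurons and Schwann cells reuse, fell only from 7.59 ± 0.253 to 4.57 ± 0.35 FPKM (log2 change -0.63 ± 0.05). Among germline genes 1 of 15 tested members rose and 13 fell. Stra8, the gatekeeper of meiosis, fell from 156 ± 16.1 to 4.96 ± 0.378 FPKM (log2 change -4.71 ± 0.09), although at day 2 it had stood at 608 FPKM, and Dazl, an RNA-binding protein of germ cells, from 74.9 to 2.66 FPKM. The member that rose was Tdrkh from 2.82 to 16.6 FPKM, which acts in the piRNA pathway. Of the genes for DNA methylation and its readers 4 of 12 tested members rose and 8 fell. Dnmt3l, the cofactor of de novo methylation, fell from 219.9 ± 63.3 to 0.104 ± 0.0882 FPKM (log2 change -7.60 ± 0.15), Uhrf1, which guides maintenance methylation, from 173 to 9.33 FPKM, and the maintenance enzyme Dnmt1 from 90.8 to 26.6 FPKM. Mbd2, which binds methylated DNA, rose from 21 to 44.9 FPKM.

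Polycomb group proteins, which keep developmental genes silent through histone marks, went both ways. Of these 9 of 21 tested members rose and 11 fell, where 54.1% and 36.4% of all genes did. In PRC2, the complex that methylates histone H3, the core subunits fell, Ezh2 from 122 ± 4.64 to 27.4 ± 1.4 FPKM (log2 change -2.12 ± 0.04), Suz12 from 122 to 17.4 FPKM and Eed from 179 to 37.4 FPKM, and so did its accessory subunits Jarid2 from 189 to 21 FPKM and Mtf2 from 177 to 24.6 FPKM. The alternative methyltransferase Ezh1 rose from 5.91 to 13.4 FPKM. In PRC1, which ubiquitinates a histone, paralogues went apart: Cbx8 rose from 1.04 ± 0.616 to 7.3 ± 1.18 FPKM (log2 change 2.07 ± 0.18) while Cbx7 fell from 123 to 51.1 FPKM, and Phc2 rose from 20.8 to 54.3 FPKM while Phc1 fell from 166 to 32.6 FPKM. Of its catalytic subunits Ring1 rose from 9.21 to 28.3 FPKM and Rnf2 fell from 103 to 44.4 FPKM. Of regulators that hold cells in a young, fast-growing state (Myc, Lin28 and oncofetal RNA-binding proteins) 1 of 15 tested members rose and 12 fell. Lin28a, which blocks let-7 microRNAs, fell from 99.8 ± 14.6 to 0.666 ± 0.117 FPKM (log2 change -5.91 ± 0.08), Trim71 from 101 to 1.51 FPKM, Igf2bp1 from 136 to 10.1 FPKM and the chromatin protein Hmga1 from 355 to 41.7 FPKM.

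Genes of cell division fell together, and none rose. Of 30 mitotic genes 30 fell with no overlap, where 32.7% of all genes lay below day 0 without overlap. Each fell at least 2-fold (median -2.95), where 16.6% of all genes fell that far. Of 34 replication genes 34 fell, 33 of them at least 2-fold (median -2.32). Ect2, which places the cleavage furrow, had 144, 168 and 178 FPKM in the lowest, median and highest day-0 library and 5.39, 5.13, 5.74, 5.36 and 6.15 FPKM at day 10 (log2 change -4.63 ± 0.07). Mybl2, a transcription factor of dividing cells, fell from 184 ± 23 to 8.78 ± 0.852 FPKM (log2 change -4.24 ± 0.07), the anaphase activator Cdc20 from 221 to 16.9 FPKM, the checkpoint kinases Bub1b from 97 to 7.09 FPKM and Bub1 from 56.2 to 3.98 FPKM, and Ube2c, which tags cyclins for destruction, from 328 to 27.2 FPKM. At the origins of replication Mcm10 fell from 68.4 ± 7.55 to 4.66 ± 0.355 FPKM (log2 change -3.61 ± 0.07), Orc1 from 41.5 to 2.61 FPKM, Mcm5 from 169.7 to 17.4 FPKM and Mcm3 from 132 to 14.5 FPKM, and the least changed was the clamp loader subunit Rfc2 from 78.2 to 49.1 FPKM. The mitotic list made up 0.505 to 0.543% of the summed FPKM of day-0 libraries and 0.0737 to 0.0765% of day-10 libraries. All 30 were also lower at day 10 than at day 4, against 32.3% of all genes.

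Promoters of these genes are shown because the fallen mitotic genes share short sequence elements. In RefSeq promoters of build GRCm38.p6, each 250 bases before to 50 bases after a start, 24 of the 30 genes had an entry. The letters TTTGAA, the core of the cell cycle homology region, were found on either strand in 18 of these 24 (75.0%), against 14.4% of 11492 tested genes with an entry and 17.9% of all 32851 promoters. CCAAT, the box bound by NF-Y, was found in 21 (87.5%), against 43.1% of tested genes and 37.4% of all promoters. Both were found in 18 (75.0%), against 7.23% of tested genes. A match is a description of letters and not of a bound site. The 4 stretches that follow come from the genes with the largest fall among those that hold TTTGAA in the 250 bases before the start, and Bub1b, Aurka and Hmmr, which hold it only after the start, are left out. They run 5′ to 3′ on the gene's strand, with both elements in capitals on whichever strand they lie (TTCAAA and ATTGG on the opposite strand).
Ect2 (chr3:27153941-27154038, minus strand): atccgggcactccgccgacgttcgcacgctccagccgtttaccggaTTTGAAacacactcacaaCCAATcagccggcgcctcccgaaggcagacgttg
Cdc20 (chr4:118437344-118437407, minus strand): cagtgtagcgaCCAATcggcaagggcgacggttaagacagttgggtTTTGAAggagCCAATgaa
Ube2c (chr2:164769854-164769928, plus strand): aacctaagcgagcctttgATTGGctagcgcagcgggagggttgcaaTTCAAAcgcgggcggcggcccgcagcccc
Top2a (chr11:99024317-99024414, minus strand): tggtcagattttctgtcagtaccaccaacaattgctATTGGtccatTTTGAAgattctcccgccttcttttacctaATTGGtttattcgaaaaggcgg
The elements lie within 50 bases of each other in each of the 4. For comparison, ATGCAAAT, the octamer bound by OCT factors, was found in the promoters of 2 of 16 pluripotency factors with an entry (12.5%, against 1.70% of tested genes), Zfp42 and Zfp296, and both fell, from 435 to 6.32 FPKM and from 37.4 to 0.418 FPKM. TCAGCACC, the left part of the element bound by the neuronal repressor REST, was found in 6 of 169 genes of the neuronal lists (3.55%, against 2.12% of tested genes), among them Scg2, Kif5c and Tubb3.

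Regulators of the step before replication went both ways. Of 25 G1 cyclins, their kinases, E2F factors and inhibitors 11 rose and 12 fell, and against day-0 replicates 1 to 3 alone, or with rescaled libraries, 13 rose and 12 fell. Cyclin E, Ccne1, fell from 107 ± 22.9 to 9.02 ± 0.306 FPKM (log2 change -3.41 ± 0.10), and E2f1 from 23.7 to 3.78 FPKM. Ccnd2, cyclin D2, rose from 4.04 ± 1.02 to 19.9 ± 1.97 FPKM (log2 change 2.07 ± 0.11), the antiproliferative Btg1 from 7.51 to 56.2 FPKM, the pocket protein Rbl2 from 2.18 to 10.1 FPKM and the inhibitors Cdkn1c from 36.5 to 116 FPKM and Cdkn2d from 9.16 to 24.5 FPKM. Of p53 targets and apoptosis genes 10 of 25 tested members rose and 15 fell, against 54.1% and 36.4% of all genes. Trp53 itself fell from 236 ± 17.3 to 40.6 ± 0.882 FPKM (log2 change -2.51 ± 0.04) and the death gene Pmaip1 from 36.5 to 3.13 FPKM, while the survival gene Bcl2 rose from 0.121 to 4.86 FPKM.

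Messengers for making proteins were lower. Of 77 cytoplasmic ribosomal protein genes 76 fell (median -1.38), and Rps29 was not called (1238 and 1429.9 FPKM). Together they made up 23.3 to 24.4% of the summed FPKM at day 0 and 11.1 to 11.8% at day 10. Rplp0, of the ribosomal stalk, fell from 2411 ± 200.3 to 403 ± 19.4 FPKM (log2 change -2.57 ± 0.06) and Rps27 from 6461 to 1166 FPKM. The scaling matters for these abundant genes: 74 fell and 1 rose with rescaled libraries, and 52 fell and 12 rose after quantile normalization. Rps27 read 6461, 4457, 3129, 1166 and 3891 FPKM at days 0, 2, 4, 10 and 20, so its lowest level was at day 10. In all 39 of the 77 were lower at day 10 than at both day 4 and day 20, against 9.32% of all genes tested. Of 30 genes of the nucleolus, where ribosomes are assembled, 29 fell, Npm1 from 2709 ± 339.9 to 349 ± 20.5 FPKM (log2 change -2.94 ± 0.07), Ncl from 762 to 155 FPKM and the snoRNP proteins Nhp2 from 313 to 48.9 FPKM and Dkc1 from 160.4 to 32.2 FPKM, and Rrp1 rose from 121 to 138 FPKM.

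Some rows that name copies of other genes stood apart at day 10 as well. Of 12 tested rows with a pseudogene name ending in -ps, 12 fell, against 36.4% of all genes. Of the 12, 6 were lower at day 10 than at both day 4 and day 20, against 9.32% of all genes. Ribosomal protein names were carried by 6 of the 12 rows, and 5 of these were lower than at both days. Only 4 genes had a day-10 mean at least 4-fold below the mean of each other day (with 10 FPKM or more on those days), a threshold chosen after the values were seen. They were Gm10073, Gm11808, Rpl27-ps3 and Sap18b, the last a copy of the corepressor gene Sap18. Sap18b stood at 165, 165, 76.3, 1.44 and 82.3 FPKM over the 5 days and Sap18 at 123, 153, 97, 239 and 61.2 FPKM. The copy held 0.430 to 0.717% of their sum in the day-10 libraries and 43.1 to 67.5% in the libraries of the other days. The sum itself was 288 ± 25.1 FPKM at day 0 and 240 ± 11.1 at day 10. Reads of near-identical copies can be divided between them in more than 1 way, and what part this has in the falls of ribosomal protein genes was not tested.

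**Figure D2:**
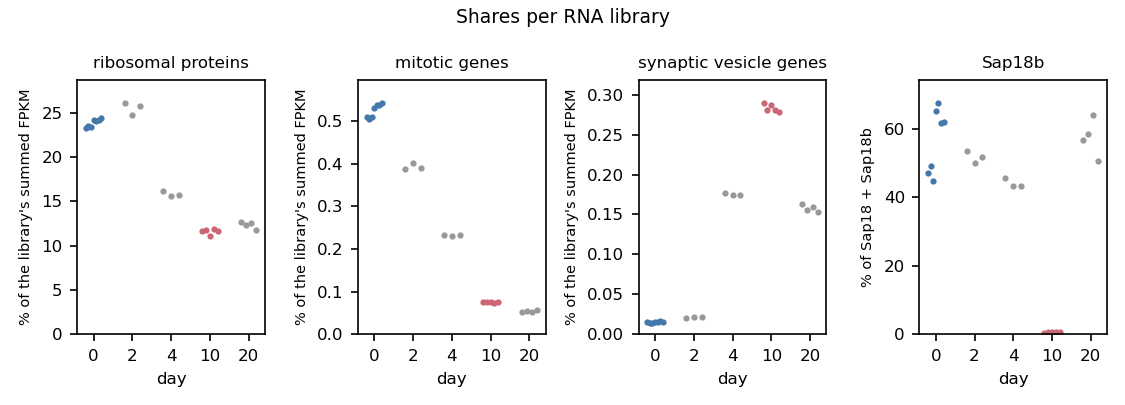
Share of each RNA library's summed FPKM held by 3 gene lists, and share of Sap18b in the sum of Sap18 and Sap18b (y axes in percent), by day (x axis). Each point is 1 library, blue at day 0 and red at day 10. Ribosomal proteins fell from 23.3–24.4% to 11.1–11.8%, while Sap18b was near 0 at day 10 only.

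Chaperones fell for the most part. Among heat shock and chaperone genes 10 of 29 tested members rose and 18 fell, against 54.1% and 36.4% of all genes. The small heat shock protein Hspb1 fell from 967 ± 38.2 to 58 ± 4.77 FPKM (log2 change -4.04 ± 0.07), Hsp90aa1 from 2948 to 467 FPKM and the mitochondrial chaperonins Hspd1 from 591 to 162 FPKM and Hspe1 from 683 to 181 FPKM. Hspa12a rose from 1.65 to 17.9 FPKM and the neuronal co-chaperone Dnajb2 from 6.77 to 46.4 FPKM, and the inducible Hspa1a from 1.71 to 10.5 FPKM.

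Most genes of retinoic acid's own pathway were higher. Of 24 genes that make, carry, bind or break down retinoids 20 rose and 4 fell, against 54.1% and 36.4% of all genes (median 2.11). Cyp26a1, the chief breakdown enzyme, read 1.22, 2.67 and 3.84 FPKM in the lowest, median and highest day-0 library and 341, 335, 301, 338 and 318 FPKM at day 10 (log2 change 6.59 ± 0.16). It was higher than at day 4 by 0.94 ± 0.21. Its relative Cyp26b1 rose from 0.327 ± 0.0945 to 97.4 ± 5.46 FPKM (log2 change 6.21 ± 0.05), the retinol carrier Rbp4 from 1.81 to 111 FPKM, and Dhrs3, which turns retinal back into retinol, from 2.54 to 119 FPKM. The receptors went apart: Rarb, whose own promoter carries a retinoic acid element, rose from 0.944 ± 0.35 to 34.2 ± 1.33 FPKM (log2 change 4.20 ± 0.11) and Rarg fell from 69.2 ± 20.1 to 5.58 ± 0.262 FPKM (log2 change -3.37 ± 0.14). Crabp2, which brings retinoic acid to its receptors, was below its day-0 level, from 14.1 ± 1.3 to 5.82 ± 0.353 FPKM (log2 change -1.15 ± 0.08), having stood at 1084 FPKM at day 2, whereas Crabp1 rose from 19.3 to 96 FPKM. The orphan receptor Nr2f1 rose from 0.151 to 70.8 FPKM.

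Hox genes, which tell cells where they lie along the body axis, were at or near 0 at day 0 and high at day 10. Of paralogue groups 1 to 5, which mark hindbrain and neck, 14 of 15 rose (median 4.02). Of groups 6 to 13, which mark trunk and tail, 11 of 14 tested members rose (median 4.76), with 10 more under the filter. Those 10 are not in the median, so the medians of these lists cannot be ranked. Hoxb8, the most abundant, had 0.18, 0.28 and 0.55 FPKM in the lowest, median and highest day-0 library and 327, 299, 249, 315 and 271 FPKM at day 10 (log2 change 7.78 ± 0.07). Next in level at day 10 came Hoxb9 136 ± 3.96, Hoxa5 128 ± 7.31 and Hoxb6 122 ± 8.84 FPKM, whose libraries overlap in part. Hoxb5 rose from 0.237 to 72.2 FPKM, Hoxc4 from 0.267 to 53.9 FPKM, Hoxb7 from 0.546 to 45.3 FPKM and Hoxc6 from 0.0143 to 47 FPKM. The most posterior genes stayed down: Hoxc13 and Hoxd13 fell from 2.87 to 0.21 FPKM and from 1.84 to 0.042 FPKM, and the 10 under the filter included Hoxd10 to Hoxd12 and Hoxc10 to Hoxc12. Hoxb1, the earliest gene of its cluster and the member of groups 1 to 5 that fell, stood at 0.794, 17.1, 1.95, 0.234 and 0.0625 FPKM over the 5 days.

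Between day 4 and day 10 the Hox genes of low number fell. All 15 genes of groups 1 to 5 were lower at day 10 than at day 4, against 32.3% of all genes. Of the 14 tested genes of groups 6 to 13, 6 were higher, a share near the 41.4% of all genes, and 4 were lower. In groups 6 and 7, 4 of 5 were higher, while in group 9, 2 of 3 were lower. Hoxc8 was higher by 3.03 ± 0.09, Hoxa6 by 1.39 ± 0.09 and Hoxa7 by 1.14 ± 0.12, while Hoxb4 and Hoxd4 were lower, with log2 changes of -2.11 ± 0.13 and -2.04 ± 0.09. Hoxc8 had 29, 28, 29.2, 26.8 and 27.6 FPKM in the 5 day-10 libraries against means of 2.57 at day 4 and 1.95 at day 20. The clusters differed in level too: summed over its genes Hoxb stood at 791 ± 50.6, Hoxa at 283 ± 11.5, Hoxc at 159 ± 1.66 and Hoxd at 42.1 ± 1.83 FPKM, and no 2 clusters overlapped. At day 4 the same sums had been 1150.3 ± 31.3, 376 ± 3.62, 168 ± 1.34 and 128 ± 3.51 FPKM.

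**Figure D3:**
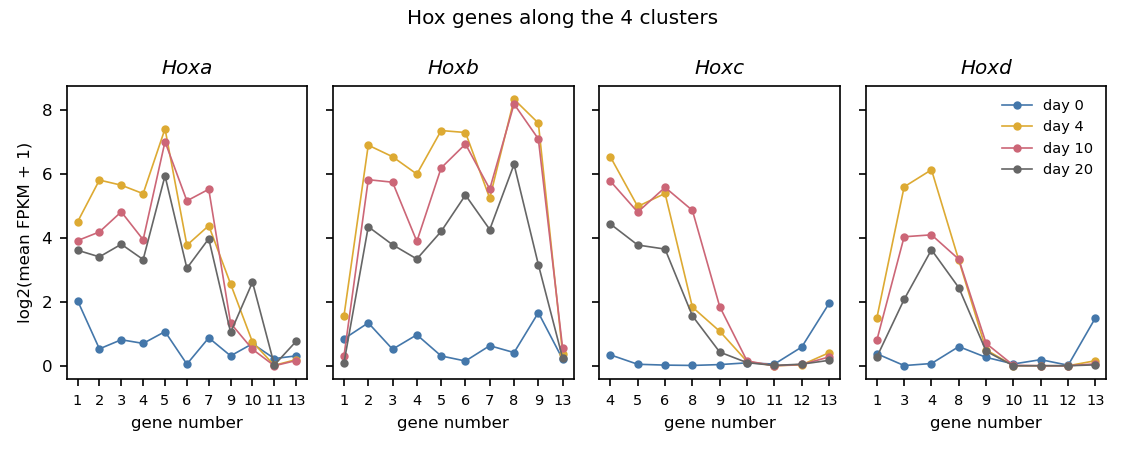
Mean level of each Hox gene (y axis, log2 of mean FPKM + 1) in order of gene number along the 4 clusters (x axis), at days 0, 4, 10 and 20. Genes 6 to 8 of Hoxa and Hoxc were at or above their day-4 level at day 10, genes 1 to 5 below it, and genes numbered 10 and higher were near 0 at day 10.

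Cofactors and regional factors were read beside the Hox genes. Meis and Pbx proteins, which bind DNA with Hox proteins, rose in 9 of 9 cases, Meis1 from 1.68 ± 0.258 to 38.5 ± 1.18 FPKM (log2 change 3.89 ± 0.06), Meis2 from 5.27 to 65.1 FPKM and Pbx3 from 5.83 to 43.7 FPKM. Of 20 forebrain and midbrain factors 9 stayed under the filter, among them Emx1 of the cortex and Six3 and Rax of the eye field, all with means under 0.3 FPKM on both days. Of the 11 tested 6 rose and 4 fell, shares near the 54.1% and 36.4% of all genes. The highest of those that rose, Pax2 from 0.0986 to 13.5 FPKM, also belongs to spinal interneurons. Gbx2, of the hindbrain border, fell from 46.1 to 10.9 FPKM. Of factors that divide the neural tube from back to belly 17 of 22 tested members rose and 5 fell, with the same shares of all genes for comparison. Olig2, of the motor neuron and oligodendrocyte domain, rose from 0.0114 ± 0.0195 to 38.3 ± 3.33 FPKM (log2 change 5.28 ± 0.06) and Olig1 from 0.0943 to 53.7 FPKM, the ventral Nkx6-1 from 0.11 to 10.6 FPKM and the intermediate Dbx2 from 0.14 to 6.81 FPKM and Dbx1 from 0.0129 to 5.86 FPKM. The hedgehog effectors Gli1, Gli2 and Gli3 fell, from 5.92 to 2.73 FPKM, from 5.41 to 2.14 FPKM and from 4.5 to 1.92 FPKM.

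Radial glia, the progenitors that give rise to neurons and later to glia, were represented by 24 genes. Of these 21 rose and 2 fell (median 2.63), against 54.1% and 36.4% of all genes. Fabp7, their lipid-binding protein and the gene with the largest rise, had 1257, 1325, 1341, 1320.1 and 1419 FPKM at day 10. The endothelin receptor Ednrb rose from 0.127 ± 0.0632 to 104 ± 5.23 FPKM (log2 change 6.54 ± 0.05), the proteoglycan Ncan from 0.194 to 85.3 FPKM, the phosphatase Ptprz1 from 0.414 to 50.1 FPKM and Hopx from 2.14 to 92.3 FPKM. Nes, the classic progenitor filament, was below its day-0 level, from 18.3 ± 4.33 to 10.2 ± 0.362 FPKM (log2 change -0.76 ± 0.11), after 77.8 FPKM at day 4, and the filament Vim rose from 318 ± 14 to 443 ± 23.3 FPKM (log2 change 0.47 ± 0.04). In the Notch pathway, by which progenitors hold back their neighbours, 19 of 22 tested members rose and 2 fell. The target Hes5 rose from 0.203 ± 0.108 to 41 ± 4.82 FPKM (log2 change 5.12 ± 0.08), Hey1 from 0.424 to 21.3 FPKM, the feedback gene Nrarp from 1.02 to 16.4 FPKM, the ligand Dll1 from 3.73 to 18 FPKM and the neuronal receptor ligand Dner from 0.243 to 86.4 FPKM.

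Transcription factors of neurogenesis rose from day 0 but mostly stood lower than at day 4. Of 29 tested proneural and neurogenic factors 27 rose and 1, Eomes, fell (median 2.14), against 54.1% and 36.4% of all genes. Another 3 were under the filter. Scrt1 rose from 0.236 ± 0.0702 to 31.2 ± 2.62 FPKM (log2 change 4.70 ± 0.06), Ebf3 from 0.26 to 31.5 FPKM, and Myt1l from 0.473 to 20.2 FPKM, which represses non-neuronal genes. Of the same 29, 24 were lower at day 10 than at day 4, against 32.3% of all genes, and 4 were higher, among them Neurod6 and Neurod2, which stood at 8.79 ± 0.616 and 6.18 ± 0.642 FPKM after day-4 means of 0 and 0.0367. Neurog1, a proneural factor, stood at 0.267, 6.46, 67, 1.06 and 0 FPKM over the 5 days, while Myt1l was higher at day 10 than at day 4 by 1.01 ± 0.13. Of factors that specify classes of spinal neurons 20 of 24 tested members rose and 1 fell, with 8 under the filter. Those with the highest day-10 level among the risen were Lhx1 from 0.13 ± 0.0733 to 14.3 ± 0.717 FPKM (log2 change 3.76 ± 0.06), Pax2, Lbx1 from 0.229 to 10.1 FPKM and Lhx5 from 0.874 to 9.27 FPKM, factors of dorsal and inhibitory interneurons. Of genes for acetylcholine and motor neurons 14 of 18 tested members rose and 2 fell, against 54.1% and 36.4% of all genes. Of the same 18, 14 were lower at day 10 than at day 4, against 32.3% of all genes.

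Structural genes of neurons rose for the most part. Of 30 cytoskeleton and growth cone genes 28 rose and 2 fell (median 3.52). The stathmins Stmn4 and Stmn3, which disassemble microtubules, rose from 0.23 ± 0.212 to 118 ± 4.42 FPKM (log2 change 6.62 ± 0.09) and from 1.8 to 217 FPKM, the tubulin Tubb4a from 0.28 to 90.6 FPKM, the growth cone protein Gap43 from 2.2 to 210.5 FPKM, Dclk1 from 0.34 to 89.4 FPKM and the axonal motor Kif1a from 0.573 to 75.3 FPKM. The heavy neurofilament Nefh fell from 9.93 ± 1.57 to 4.72 ± 0.261 FPKM (log2 change -0.92 ± 0.09). All 17 neuronal RNA-binding regulators rose, the splicing factor Rbfox3, known as NeuN, from 0.0971 ± 0.111 to 29.9 ± 2.14 FPKM (log2 change 4.82 ± 0.08), Rbfox1 from 0.0643 to 35.6 FPKM, Celf4 from 0.621 to 60.6 FPKM and Elavl4 from 1.05 to 44.2 FPKM. Of 41 axon guidance genes 39 rose and 1 fell, the secreted cue Ntn1 from 1.27 ± 0.933 to 69.8 ± 9.44 FPKM (log2 change 5.06 ± 0.20), the Slit receptor Robo2 from 0.289 to 34.6 FPKM, the adhesion protein Nrcam from 0.937 to 41.5 FPKM and the ephrin receptor Epha5 from 0.279 to 26.6 FPKM.

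Synaptic genes rose almost throughout, and most of them stood higher at day 10 than at day 4. All 38 synaptic vesicle genes rose, 35 of them at least 2-fold where 30.5% of all genes did (median 3.28), and 28 were above day 4, against 41.4% of all genes, of which 73.7% differed between these days. Snap25, of the fusion machine, rose from 0.306 ± 0.169 to 74.9 ± 1.01 FPKM (log2 change 5.87 ± 0.08), the vesicle proteins Syp from 2.06 to 121 FPKM and Rab3a from 1.39 to 106 FPKM, the complexin Cplx1 from 1.58 to 77.9 FPKM and beta-synuclein, Sncb, from 0.449 to 104 FPKM. On the receiving side 23 of 27 scaffold and adhesion genes rose and 2 fell. Dlg4, the scaffold PSD-95, rose from 1.5 ± 0.613 to 62.8 ± 3.06 FPKM (log2 change 4.71 ± 0.11), the neurexin Nrxn2 from 2.98 to 103 FPKM and the neuroligin Nlgn3 from 0.153 to 14.6 FPKM. Arc, induced by activity at excitatory synapses, fell from 13.9 ± 2.22 to 2.12 ± 0.217 FPKM (log2 change -2.25 ± 0.08). All 25 tested sodium and calcium channel subunits rose, as did 32 of 34 tested potassium and HCN channel subunits. Each of these lists had 2 more under the filter. Examples were the calcium channel partner Cacng4 from 0.63 to 54.2 FPKM, the pore subunit Cacna1g from 0.316 to 14.7 FPKM, the sodium channel subunit Scn3b from 1.38 to 24.4 FPKM, Kcnip1 from 0.0229 to 22 FPKM and Kcnd3 from 0.0943 to 16.3 FPKM.

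Genes for inhibitory transmission rose, and many stood higher at day 10 than at day 4 and day 20. All 24 tested GABA and glycine genes rose, each at least 2-fold and with no overlap (median 3.16). Of all genes 30.5% rose that far, and 49.5% lay above day 0 without overlap. Of these 14 were above both day 4 and day 20, against 15.3% of all genes. This was not particular to inhibitory genes. It held too for 22 of 38 synaptic vesicle, 18 of 27 scaffold and adhesion and 11 of 22 glutamate genes. Gad1, which makes GABA, had 0.88, 1.43 and 3.12 FPKM in the lowest, median and highest day-0 library and 35.9, 37.3, 38.2, 35 and 37.7 FPKM at day 10 (log2 change 3.88 ± 0.13). Its level was above day 4 by 3.04 ± 0.16 and above day 20 by 2.32 ± 0.14. Its partner enzyme Gad2 rose from 0.0971 ± 0.0998 to 10.2 ± 0.648 FPKM (log2 change 3.36 ± 0.06). Slc6a5, the glycine transporter of glycinergic neurons, had 17.7, 17.5, 17.4, 17 and 17 FPKM at day 10 and at most 0.12 FPKM in any day-0 library. Slc32a1, which loads both transmitters into vesicles, rose from 0.313 to 28.7 FPKM, and Slc6a11, a reuptake transporter of astrocytes, from 0.123 to 91.5 FPKM. Glutamate genes rose in 21 of 22 tested cases, 19 above day 4, with 3 more under the filter. The receptor subunit Gria2 rose from 0.0143 ± 0.023 to 21.8 ± 0.688 FPKM (log2 change 4.49 ± 0.05). Its fellow subunit Grin1 rose from 0.856 to 24.6 FPKM and the glial transporter Slc1a3 from 5.3 to 152 FPKM. The vesicular transporter Slc17a6, of hindbrain and spinal neurons, rose from 0.0571 to 9.17 FPKM, while Slc17a7, that of the cortex, fell from 1.8 to 0.14 FPKM. Monoamine genes were sparse, with 9 of 18 under the filter, among them the serotonin genes Tph2 and Slc6a4, with means under 1 FPKM on both days.

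Among all genes a small group stood at 4-fold or more above every other day at day 10, with 10 FPKM or more. The rule was set after the values were seen, and gave 14 genes, against 183, 19, 61 and 436 by the same rule at days 0, 2, 4 and 20. Besides Gad1, Gad2, Slc6a5 and Hoxc8 they were Pnoc, Vgf, Snhg11, Crym, Ptpn5, Rgs4, Sv2c, Ccdc184, Gm8797 and Gm26602. Pnoc, the precursor of the peptide nociceptin, had 36.1, 35, 33.3, 35.6 and 34 FPKM at day 10 and a mean of 3.78 at day 4 and 1.18 at day 20. Vgf, a secreted protein of the granin kind, stood at 3.58, 0.27, 2.82, 92.9 and 17.5 FPKM over the 5 days. The vesicle protein Sv2c stood at 0.346, 0.157, 0.77, 17.2 and 4.16 FPKM, and the phosphatase gene Ptpn5, enriched in striatum, at 0.206, 0.123, 7.56, 33.5 and 5.95 FPKM. Gm26602 was listed at 0 in every library of the other days and at 29.5, 18.6, 21.1, 34.9 and 23.3 FPKM at day 10. The counting settings of the libraries are not known, and their part in such single-day levels was not tested.

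**Figure D4:**
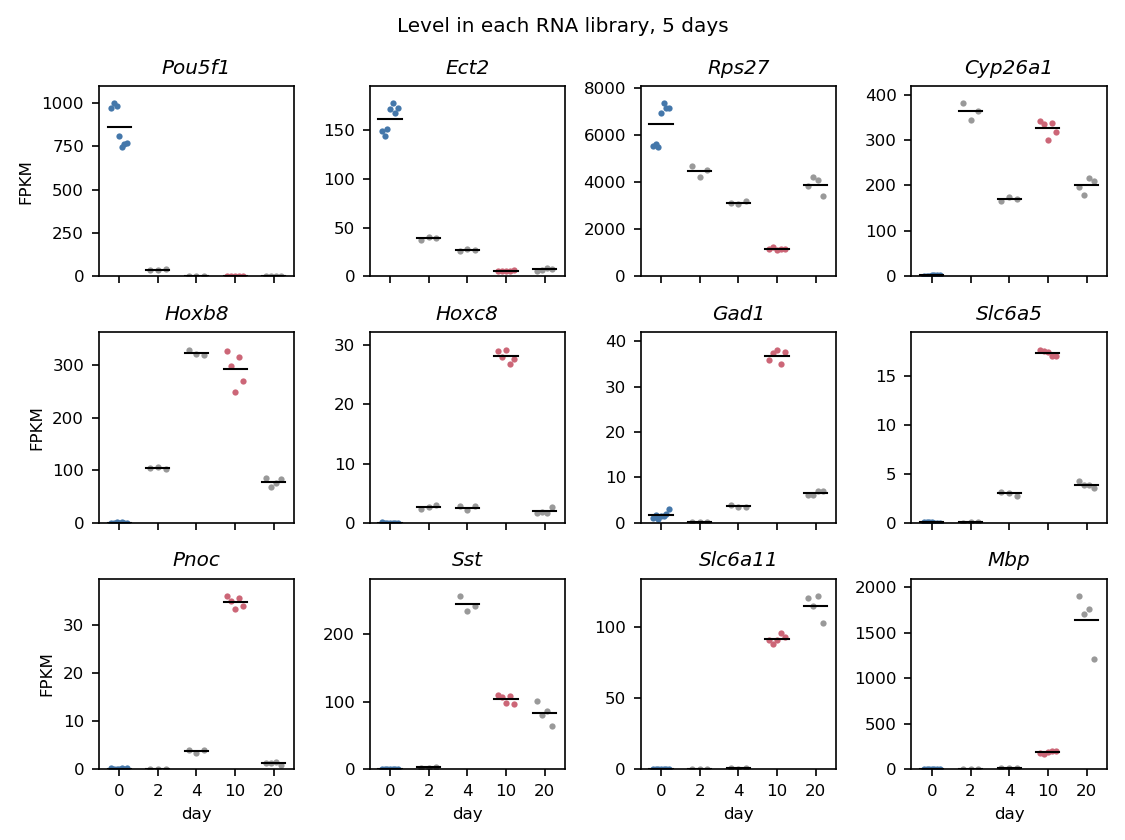
Level of 12 genes in each RNA library (y axis, FPKM, from 0) by day (x axis). Points are libraries, blue at day 0 and red at day 10, and black bars are day means. Hoxc8, Gad1, Slc6a5 and Pnoc were high at day 10 and low on every other day, whereas Sst was highest at day 4 and Mbp at day 20.

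Peptide precursors and granins, which fill the dense granules of neurons, rose in 22 of 23 tested cases, where 54.1% of all genes did. Another 4 were under the filter. Of the 23 tested 17 were above both day 4 and day 20, against 15.3% of all genes. Sst, which encodes somatostatin, rose from 0.187 ± 0.155 to 104 ± 6.06 FPKM (log2 change 6.48 ± 0.11) but was below its day-4 level of 245 ± 11.3. The granins Scg2 and Chgb rose from 0.0286 ± 0.0146 to 64.6 ± 2.87 FPKM (log2 change 5.99 ± 0.05) and from 0.281 to 42.4 FPKM, the chaperone Scg5 from 0.326 to 63.6 FPKM and the processing enzyme Cpe from 5.75 to 239.9 FPKM.

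Glial genes followed a later course. Of 32 astrocyte genes 28 rose and 4 fell (median 3.58), and 27 were still below their day-20 level. Of all genes 75.2% differed between day 10 and day 20, with 37.2% lower and 38.1% higher at day 10. Aldoc, an aldolase of astrocytes, had 169, 169, 165, 179.8 and 174 FPKM at day 10 (log2 change 5.94 ± 0.11). Ndrg2 rose from 6.42 ± 2.46 to 199 ± 11.3 FPKM (log2 change 4.82 ± 0.19) and the folate enzyme Aldh1l1 from 2.2 to 87.3 FPKM. The water channel Aqp4, a marker of mature astrocytes, was at 2.63 FPKM at day 10 and 132 at day 20. Those that fell included the metallothionein Mt2 from 1048 to 303 FPKM, the lipid carrier Apoe from 931 to 463 FPKM and the connexin Gja1 from 84.8 to 44.6 FPKM. Of 24 genes of oligodendrocytes and their precursors 22 rose and 1 fell (median 3.25), and 19 were below day 20. Mbp, myelin basic protein, read 173, 171, 187, 199 and 194 FPKM at day 10 (log2 change 6.43 ± 0.11) and 1645 FPKM on average at day 20. Sox10, a transcription factor of the lineage, rose from 0.211 ± 0.0604 to 29.9 ± 2.96 FPKM (log2 change 4.67 ± 0.08), and Pdgfra, a receptor of the precursors, from 9.4 to 52.5 FPKM. Mog, made last in myelin, reached 1.88 FPKM, and the single call of a fall, Mobp (5.43 and 2.54 FPKM), was lost against day-0 replicates 1 to 3 alone.

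Genes of cells outside the neural lineage were mixed. Of 20 microglia and blood genes 17 were under the filter. Of the 3 tested Csf1r and Cd68 rose, from 0.0714 to 0.758 FPKM and from 6.07 to 9.05 FPKM, and Laptm5 fell from 72.5 ± 19.3 to 0.378 ± 0.139 FPKM (log2 change -5.70 ± 0.17). Cd68 turned to a log2 change of -0.12 after quantile normalization. Of 14 endothelial genes 9 were tested, and 5 rose and 4 fell, where 54.1% and 36.4% of all genes did. Flt1 rose from 1.25 ± 0.118 to 33.1 ± 1.68 FPKM (log2 change 3.92 ± 0.06) and Cdh5, the junction protein of vessels, from 0.584 to 9.95 FPKM. Pecam1, which stem cells express too, fell from 29.3 ± 1.72 to 0.344 ± 0.0623 FPKM (log2 change -4.49 ± 0.06). Mesenchyme and matrix genes rose in 27 of 31 tested cases and fell in 4 (median 1.46), with 2 more under the filter. The basement membrane collagens Col4a1 and Col4a2 rose from 53.7 ± 23.2 to 702 ± 55.3 FPKM (log2 change 3.81 ± 0.22) and from 27 to 452 FPKM, the fibrillar Col3a1 from 0.844 to 24.3 FPKM, Col6a1 from 0.0843 to 28 FPKM and decorin, Dcn, from 0.02 to 9 FPKM, while fibronectin, Fn1, fell from 139.8 to 29.7 FPKM and Twist1 from 16.7 to 1.82 FPKM. Of muscle genes 7 of 18 tested members rose and 8 fell, where 54.1% and 36.4% of all genes did. Tagln, of smooth muscle, fell from 97.7 to 11.3 FPKM.

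Endoderm and liver genes rose in 22 of 24 tested cases and 1 fell (median 1.73, 2.30 against day-0 replicates 1 to 3 and 1.52 against 4 to 7). Sox17, a founding factor of endoderm, rose from 17 ± 10.2 to 65.1 ± 8.58 FPKM (log2 change 2.14 ± 0.33), Apoa1 from 0.0386 to 27.3 FPKM, Apoa4 from 0.00857 to 10.5 FPKM, and Ttr, which carries thyroid hormone and is made by endoderm and choroid plexus, from 0.0814 to 23.2 FPKM. Alb, the defining gene of hepatocytes, was at most 0.01 FPKM in any day-10 library. Of epithelial junction and keratin genes 17 of 31 tested members rose and 10 fell, shares near the 54.1% and 36.4% of all genes. After quantile normalization 12 rose and 13 fell. Krt19 rose from 5.24 ± 1.24 to 72.9 ± 4.65 FPKM (log2 change 3.59 ± 0.10) and Cldn7 from 2.2 to 40.8 FPKM, while Cdh1, E-cadherin, fell from 52.8 to 21.7 FPKM and Grhl2 from 15 to 2.23 FPKM. Of these 31 genes 30 were higher at day 20 than at day 10, against 37.2% of all genes. Of neural crest and Schwann genes 7 of 14 tested members rose, a share near the 54.1% of all genes, and 4 fell. That balance turned after quantile normalization (5 and 8), and Foxd3 fell from 16.9 to 6.42 FPKM.

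Signalling genes changed member by member, and their counts are read against 54.1% risen and 36.4% fallen among all genes. Of 30 tested WNT genes 21 rose and 8 fell: the ligands Wnt7a, Wnt5b and Wnt5a rose from 0.0657 ± 0.0299 to 20.9 ± 1.11 FPKM (log2 change 4.36 ± 0.08), from 0.276 to 17.4 FPKM and from 0.747 to 15.8 FPKM and the secreted Dkk3 from 0.949 to 101 FPKM, while the inhibitor Notum fell from 17.4 to 1.05 FPKM and the nuclear effectors Tcf7 from 21.7 to 2.29 FPKM and Lef1 from 7 to 0.6 FPKM. Of 37 BMP and TGF-beta genes 24 rose and 9 fell, against 54.1% and 36.4% of all genes. Id4 rose from 1.05 ± 0.158 to 42.3 ± 1.41 FPKM (log2 change 4.41 ± 0.06). Id2 rose from 3.34 to 46 FPKM and Tgfbr2 from 1.43 to 23.1 FPKM. Among those that fell were Gdf3 from 46.5 to 0.264 FPKM and Smad7 from 52.7 to 6.37 FPKM. FGF genes went both ways, 13 up and 15 down of 30, or 15 up and 14 down with rescaled libraries. Those that fell furthest were Fgfbp1, which binds FGF ligands, from 53.4 to 0.234 FPKM, the ligand Fgf4, and the feedback and target genes Spry4 from 72.9 ± 10.1 to 2.21 ± 0.0955 FPKM (log2 change -4.51 ± 0.08), Dusp6 from 98.7 to 9.12 FPKM and Etv5 from 103 to 10.2 FPKM. Among those that rose were the receptor Fgfr3 from 3.43 ± 1.53 to 53.5 ± 3.32 FPKM (log2 change 3.69 ± 0.16), Fgfbp3 from 0.377 to 70.4 FPKM and the intracellular Fgf13 from 2.14 to 39.9 FPKM. Of 21 tested neurotrophin and GDNF genes 15 rose and 2 fell, with 2 more under the filter. The receptors Ntrk2 from 1.08 to 53.6 FPKM and Ntrk3 from 0.129 to 16.3 FPKM were among those that rose.

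Housekeeping pathways shifted in part. In glycolysis 14 of 24 tested members rose and 9 fell, shares near the 54.1% and 36.4% of all genes. The neuronal enolase Eno2 rose from 1.21 ± 0.51 to 55 ± 2.22 FPKM (log2 change 4.70 ± 0.13) and Tpi1 from 64.7 to 313 FPKM, while the hexokinase Hk2 fell from 91.8 ± 5.93 to 15.2 ± 0.802 FPKM (log2 change -2.52 ± 0.04), the glucose transporters Slc2a3 and Slc2a1 from 347 to 54 FPKM and from 182 to 36.3 FPKM, and the gate kinase Pdk1 from 55 to 11.1 FPKM. Of 49 respiratory chain subunits 11 rose and 29 fell, with a single change of 2-fold, Atp5b from 3472 ± 383 to 923 ± 77.4 FPKM (log2 change -1.91 ± 0.07). That balance depended on scaling, with 24 up and 13 down after quantile normalization and 27 and 13 with rescaled libraries. Lysosome genes rose in 29 of 35 cases and fell in 2 (median 0.94), the cathepsins Ctsh from 6.23 ± 3.93 to 97.9 ± 7.55 FPKM (log2 change 4.01 ± 0.30) and Ctsb from 59.4 to 443 FPKM, the membrane protein Lamp2 from 23.9 to 109.7 FPKM and prosaposin, Psap, from 137 to 603 FPKM. Of cholesterol genes 11 rose and 12 fell of 25. The exporter Abca1 rose from 3 ± 0.545 to 36.8 ± 1.91 FPKM (log2 change 3.25 ± 0.07) and the brain cholesterol hydroxylase Cyp46a1 from 0.231 to 11.7 FPKM.

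Genes that respond to stimuli went both ways. Of immediate early genes 13 of 22 tested members rose, a share near the 54.1% of all genes, and 5 fell. Fos had 2.95, 4.6 and 6.15 FPKM in the lowest, median and highest day-0 library and 140.2, 135, 139, 139 and 139.9 FPKM at day 10 (log2 change 4.72 ± 0.12). The day-10 libraries lay close together and far above day 0. Fosb rose from 0.253 to 10.7 FPKM, Jun from 11 to 75.7 FPKM and the neuronal Npas4 from 0.219 to 4.09 FPKM. Of MHC and interferon genes 21 of 29 tested members rose and 6 fell, where 54.1% and 36.4% of all genes did. Among those that rose were B2m from 21.5 ± 3.1 to 225 ± 11.9 FPKM (log2 change 3.34 ± 0.08), H2-D1 from 8.66 to 137 FPKM and H2-K1 from 11.1 to 122 FPKM, and among those that fell were Ifitm2 from 361 to 77.5 FPKM and Ifitm1 from 27.7 to 3.28 FPKM. MHC genes vary between strains and copies, so their levels are uncertain. Imprinted genes, of which the active copy depends on the parent, rose in 18 of 25 cases and fell in 4 (median 2.04). Ndn rose from 2.84 ± 0.431 to 88 ± 2.78 FPKM (log2 change 4.54 ± 0.07), Nap1l5 from 0.707 to 115 FPKM and the growth factor Igf2 from 5.7 to 101 FPKM, while Phlda2, of the placenta, fell from 65.1 ± 31 to 0.8 ± 0.258 FPKM (log2 change -5.05 ± 0.27).

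Pairs of related genes were compared within each library, because such a ratio depends little on the library's scale. The 31 pairs were chosen with earlier results of these data known. Their log2 ratio of second to first was tested between days with an exact permutation test, 2-sided over 792 splits. Since 90.5% of all genes tested differed between the days, a difference in most pairs says little by itself. The ratio differed in 30 pairs, with an exact permutation p of 0.00126 as the smallest the test allows and 0.00151 when adjusted over 31 pairs. It moved towards the second gene in 26 and the first in 4. In 10 pairs the first gene was ahead in every day-0 library and the second in every day-10 library. Between subunits of the BAF chromatin remodeller the lead passed from Actl6a to the neuronal Actl6b, from -6.60 ± 0.07 to 0.31 ± 0.07. Rarg gave way to Rarb, from -5.15 ± 0.30 to 2.42 ± 0.08, Fabp5 to Fabp7, from -3.65 ± 0.31 to 2.39 ± 0.05, Tet1 to Tet3, from -4.63 ± 0.25 to 1.15 ± 0.06, and E-cadherin to N-cadherin, Cdh2, from -3.93 ± 0.26 to 1.58 ± 0.07. The others that passed were Hk2 to Hk1, Slc12a2 to Slc12a5, Kif5b to Kif5c, Tuba1b to Tuba1a and Fgfr1 to Fgfr3. Slc12a5, which lowers chloride in mature neurons so that GABA inhibits them, had a ratio to Slc12a2 that went from -3.39 ± 0.14 to 0.29 ± 0.14.

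In 14 pairs the first gene stayed ahead on both days. The splicing regulators Ptbp1 and Ptbp2 went from -3.84 ± 0.19 to -0.50 ± 0.17, the aldolases Aldoa and Aldoc from -6.72 ± 0.25 to -0.88 ± 0.04, and the polycomb enzymes Ezh2 and Ezh1 from -4.16 ± 0.10 to -0.98 ± 0.10. The 4 pairs that moved towards the first gene were Myc over Mycn (from 0.85 ± 0.57 to -0.66 ± 0.09, exact permutation p adjusted 0.0028), Ldha over Ldhb, Slc2a1 over Slc2a3 and Krt18 over Vim. The Myc pair passed to the first gene in every library, and its day-0 ratio had the widest spread of the 31. For the retinoic acid hydroxylases Cyp26a1 and Cyp26b1, which rose together, the ratio was from -1.36 ± 0.46 to -1.74 ± 0.07 and the difference was not called (exact permutation p adjusted = 0.11). It was called with a positive shift of 0.79 with a pseudocount of 0.1 FPKM (exact permutation p adjusted = 0.0177) and with a negative shift of -0.83 against day-0 replicates 1 to 3 alone (0.0185), so its direction is not settled.

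**Figure D5:**
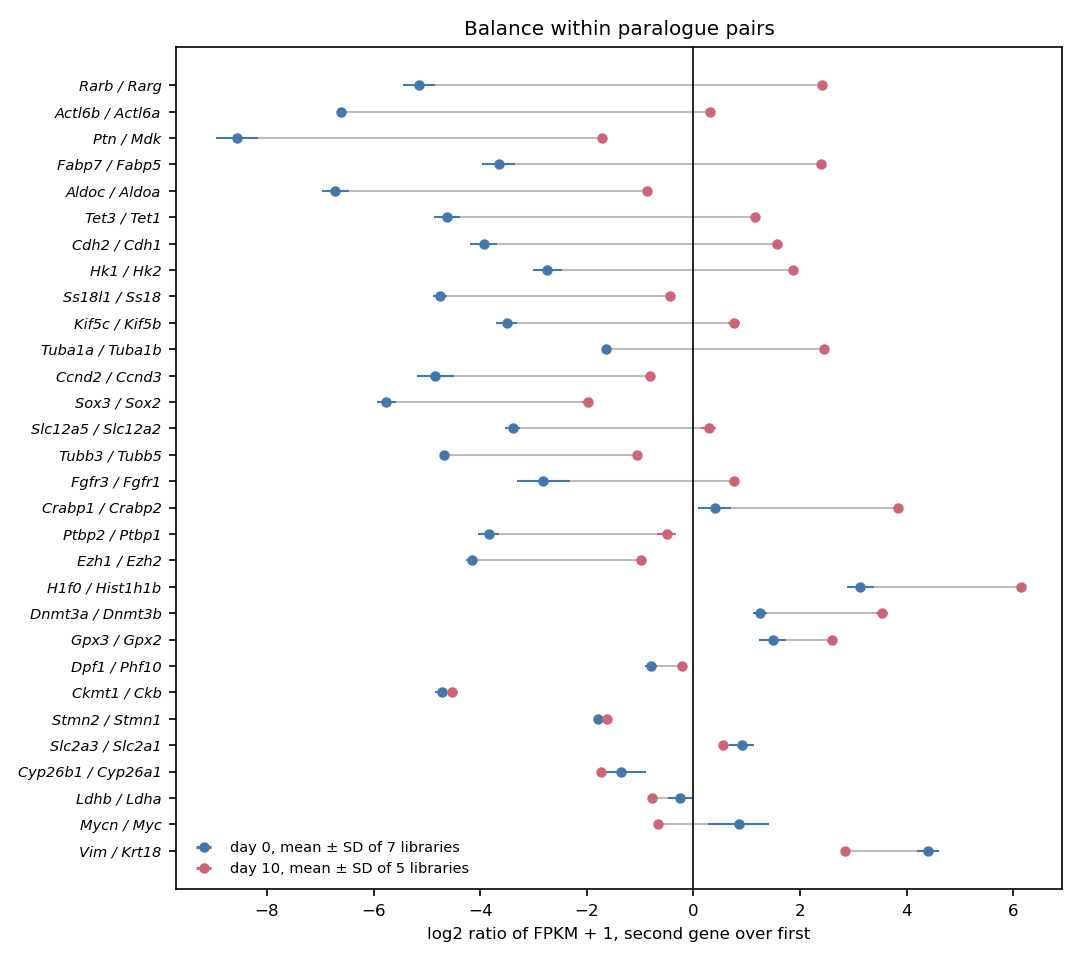
Log2 ratio of FPKM + 1 of the second over the first gene (x axis) in 30 of the 31 paralogue pairs (y axis), mean ± SD over the 7 day-0 libraries in blue and the 5 day-10 libraries in red, ordered by the size of the shift. Points to the right of the line at 0 mark libraries in which the second gene leads, as for Rarb, Actl6b and Fabp7 at day 10.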

How the data were processed

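RNA was sequenced from R1 mouse embryonic stem cells in 22 libraries, with 7 of day 0 and 5 of day 10 compared here. The authors normalised the values for transcript length and library total before they deposited the gene table, read here as FPKM from the sums and range of its columns, and TPM over a wider gene set cannot be told apart. RSEM and the mouse build mm9 appear in the submitters' processing notes, without a role. The counting settings are not known from these sources. Read counts were not used, so depth and counting error are unknown, and precision rests on the spread between libraries.

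Values were put on the scale log2(FPKM + 1). A group-means model over all 22 libraries was fitted with limma 3.58.1 in R 4.3.3, with a trended prior, to genes at 1 FPKM or more in at least 3 libraries. P-values were adjusted by Benjamini and Hochberg over all genes tested. Levels in the text are means on the FPKM scale. Shared replicate numbers showed no sign of pairing the days and were left out of the model. The script was tested on simulated data.

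The gene lists, pairs and members were chosen with earlier results of these data known. Genes open to naming were the 15 largest changes each way, the 10 most abundant 2-fold changes each way, the members of each list with the largest changes (6 each way), members of the pairs, the fixed cell markers, and members at or below the filter. Other names were chosen after their values were seen: Cbx7, Rnf2, Hoxa7, Hoxb4, Hoxd4, Neurod2, Neurod6, Lars2, Sap18, the holders of promoter motifs and the genes that stood apart on day 10 only. Some genes within the lists and pairs are counted but not reported here by name. Promoters came from RefSeq (GRCm38.p6). The alternatives were other pseudocounts, filters, scalings, priors, a fit of the compared days alone, a test against 2-fold, sets of day-0 libraries, each library left out and a replicate block.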

Additional observations from a re-analysis of the deposited data

Results flagged for a closer look

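In each day's libraries the value farthest from the others was set against that day's range, a comparison that by chance marks about 1 in 20 groups of values. Over the named genes 25 of 669 groups were marked, 16 at day 0 and 9 at day 10, and every day-0 or day-10 replicate held at most 4 of them. Day-0 replicate 1 had Actl6b at 0.17 FPKM against 0 to 0.03, Dlg4 at 2.75 FPKM against 1.01 to 1.76 and Hoxc8 at 0.05 FPKM against 0 in the others. Day-0 replicate 3 had Gad2 at 0.31 FPKM against 0.01 to 0.11, Rbfox3 at 0.34 FPKM against 0.03 to 0.12 and Robo2 at 0.82 FPKM against 0.08 to 0.37 in the others. Day-0 replicate 4 had Col3a1 at 2.03 FPKM against 0.36 to 0.96 and Slc6a5 at 0.12 FPKM against 0.02 to 0.05 in the others. Day-0 replicate 6 had Apoa4 at 0.06 FPKM against 0, Fabp7 at 0.93 FPKM against 0.07 to 0.33, Gfap at 1.14 FPKM against 0.02 to 0.2 and Wnt5b at 0.5 FPKM against 0.2 to 0.3 in the others. Day-0 replicate 7 had Dclk1 at 0.69 FPKM against 0.22 to 0.36, Dner at 0.47 FPKM against 0.16 to 0.27, Hoxd13 at 1.37 FPKM against 1.8 to 2.03 and Ptpn5 at 1.02 FPKM against 0.02 to 0.15 in the others. Of the day-0 values 11 lay under 1 FPKM. Day-10 replicate 1 had Crabp2 at 6.43 FPKM against 5.5 to 5.75, Kif5c at 78.3 FPKM against 69.4 to 71.3, Mcm10 at 5.28 FPKM against 4.4 to 4.63 and Trim71 at 1.76 FPKM against 1.4 to 1.49 in the others. Day-10 replicate 3 had Rrp1 at 129.9 FPKM against 138 to 141 in the others. Day-10 replicate 4 had Lars2 at 129 FPKM against 21.4 to 50.5, Sox10 at 35 FPKM against 27.6 to 29.6 and Vim at 484 FPKM against 429 to 436 in the others. Day-10 replicate 5 had Mog at 2.12 FPKM against 1.77 to 1.84 in the others. The day-10 departures were within 1.5 times the nearest library, other than that of Lars2.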

How the results depend on the processing

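Of 7491 values of 326 named genes over the alternatives, 7441 kept direction and call, 41 lost the call (of 8 genes: Aldoa, Fgfr1, Hoxa10, Ldhb, Mael, Mobp, Neurog1 and Slc12a2), 6 gained it (Rps29) and 3 changed sign. The sign changes were Ldhb against day-0 replicates 4 to 7 alone (log2 change -0.0423), Rps29 against replicates 1 to 3 alone (-0.0946) and Cd68 after quantile normalization (-0.12). Of 2576 list counts 2495 stayed within 1.5 times the main count. The count of genes at least 2-fold higher was 4575 and 2754 with a pseudocount of 5 FPKM, by construction a smaller change for low genes, while the other 4 counts of genes stayed within 1.5 times under every alternative. Leaving out each library in turn gave 13407 to 13542 called genes, 8011 to 8130 higher, 5378 to 5447 lower, 4566 to 4613 at least 2-fold higher and 2473 to 2509 at least 2-fold lower. With the replicate block 13504 genes were called, 13355 of them among the main calls in the same direction. The numbers showed no sign of pairing, with correlations of -0.051 to 0.116 between the deviations of same-numbered libraries of the 2 days. Day-0 libraries also differed between replicates 1 to 3 and 4 to 7. These correlations therefore cannot decide whether same-numbered libraries shared a culture. Of the main calls 11479 held after quantile normalization, with 783 opposite, and 12131 with rescaled libraries, with 526 opposite. The cause was not tested. In the hydroxylase pair the ratio shifted by 0.79 with a pseudocount of 0.1 FPKM, opposite to the main sign and called, and by -0.83, also called, against day-0 replicates 1 to 3, while the creatine kinase pair lost its call against those replicates. Unknown read depth limits what can be said of genes under 1 FPKM.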
